A study of Mus musculus with 6 samples.

Results

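Blocks of satellite-like repeat on chromosomes 2 and 9 drew far more DNA ends than their surroundings in sorted mouse forebrain neurons. They were taken as the 250 non-overlapping 200-base bins of chr2:98660001-98670000 (50 bins) and chr9:3000001-3040000 (200 bins) in the mm10 build, out of 13168894 such bins on chromosomes 1 to 19 and X. The blocks were chosen by their read density in these libraries, so their density is given as a description with no test. Ends were measured by BLISS, which ligates adaptors to free double-stranded DNA ends in fixed nuclei and sequences what in vitro transcription copies out from each adaptor. All 6 libraries came from forebrain neurons of CK-p25 mice after 2 weeks of induction, by taking doxycycline out of the diet. In this line a CaMKII promoter drives the doxycycline-controlled activator in forebrain excitatory neurons, which then make p25, a fragment that activates the kinase Cdk5. The titles put 2 libraries in each of the groups Step1, Step2 and Con, and all groups carry the same genotype and induction. The labels do not say what Step1, Step2 and Con stand for, or whether replicates are separate animals, so a p-value below reflects no more than how far these libraries scatter, and that scatter may be technical. Genomic DNA ends carry no expression values, so the labelled cell type could not be checked against markers.

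Mouse pericentromeric heterochromatin is built of major satellite, an A and T-rich tandem repeat, and the centromere itself is built of minor satellite, whose copies carry the CENP-B box bound by the centromere protein CENP-B. Most copies of both lie outside the assembled reference, and only short or decayed stretches stand in it. A read from any genomic copy can therefore be placed on such a stretch when it matches no other assembled place as well. The repeat units are shown because the strand and spacing results turn on them, in the GRCm38.p6 assembly, the same build as mm10. The major-like unit is chr9:3025338-3025570 on the minus strand, with unit bases 9 and 67 (letters 1 and 59) in capitals, which are leading 5′-end places on chromosome 9. The minor-like stretch is chr2:98664940-98665196 on the plus strand, with 3 CENP-B boxes in capitals. Both are written on the strand richer in A than in T, called the A-rich strand below.
Major-like unit: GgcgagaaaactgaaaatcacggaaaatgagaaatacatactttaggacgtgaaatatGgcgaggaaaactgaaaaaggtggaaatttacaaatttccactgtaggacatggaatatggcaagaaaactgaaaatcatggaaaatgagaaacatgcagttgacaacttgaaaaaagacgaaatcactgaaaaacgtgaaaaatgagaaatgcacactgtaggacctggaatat
Minor-like stretch: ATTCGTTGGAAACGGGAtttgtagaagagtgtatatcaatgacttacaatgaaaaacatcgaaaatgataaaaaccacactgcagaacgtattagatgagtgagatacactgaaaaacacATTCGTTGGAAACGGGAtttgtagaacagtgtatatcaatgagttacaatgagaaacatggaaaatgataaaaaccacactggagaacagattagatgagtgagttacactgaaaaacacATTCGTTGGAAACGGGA

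On chromosome 9 the repeat ran from base 3000001 to 3038419, 96.05% of the block, at 88.22% identity to the first 234-base unit, with the A-rich strand on minus throughout. The block matched itself best at a lag of 234 bases, where 69.4% of bases were identical against a median of 31.1% over lags from 100 to 1000 bases. On chromosome 2 satellite-like sequence covered 26.41% of the block in 7 stretches, of which 4 were major-like and 3 minor-like. The A-rich strand was minus in 4 of them (98662232-98662499, 98662500-98662827, 98663634-98664092 and 98666238-98666525) and plus in 3 (98662828-98662995, 98664880-98665221 and 98666545-98667332). The CENP-B box, searched on both strands as any base, TTCG, 4 bases of any kind, A, 2 of any kind, CGGG and any base, was in 5 of the 50 chromosome 2 bins and in 0 of the 200 chromosome 9 bins, against 528 of 12796535 bins (0.00413%) of the assembly. Neighbouring boxes of a stretch lay 120 bases apart, the length of a minor-like unit.

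Gene models of the GENCODE annotation overlap the blocks. Gm10801 (98662237-98664083, plus) and Gm10800 (98666547-98667301, minus) are annotated as protein-coding on chromosome 2. On chromosome 9 the minus-strand lincRNA model Gm26870 spans 3000282-3038313, and the plus-strand models Gm10722, Gm11168, Gm10721, Gm10720, Gm10719, Gm10718, Gm10717 and Gm17535 lie inside it. Gm10715, also on plus (3036877-3038316), overlaps its end. Their exons lie in the satellite-like stretches, except a Gm10801 exon at 98663120-98663124. The miRNA model Mir101c lies past the end of the repeat at 3038669-3038743 and held no read in any library. Gm10721 held 0 to 2 reads per library, and all other models held more.

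Depth ran from 1480461 to 2403238 reads per library. The chromosome 2 block held 80860 and 64701 reads in Step1, 45557 and 40899 in Step2, and 62892 and 54636 in Con. That is 4090 to 8086 reads per kb of block, against 0.7 to 1.3 per kb in the 40 kb on either side. The chromosome 9 block held 10348 and 8268 reads in Step1, 5980 and 5293 in Step2, and 9663 and 8825 in Con, or 132 to 259 per kb. The 40 kb after it held 0.1 to 0.325 per kb, and no assembled sequence was used before it. Density over the blocks was thus orders of magnitude above that of these flanks in all 6 libraries.

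Within each block the reads followed the repeat and were concentrated in few bins. Of the 250 bins, 179 held a read in at least 1 library (25 on chromosome 2 and 154 on chromosome 9), 102 held reads in all 6, and 71 held none. On chromosome 2, the 34 bins with no satellite-like base held 17 of 349545 reads, all libraries together. In each library 2 or 3 bins held 50% of that block's reads, and 7 or 8 held 90%. On chromosome 9, 9 or 10 bins held 50% and 38 to 40 held 90%. The 7 chromosome 9 bins past the end of the repeat held 0 reads.

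The bin with the highest mean share on chromosome 2 started at base 98667001, in the major-like stretch that holds Gm10800. It held 26861 and 21600 reads in Step1, 15819 and 14139 in Step2, and 21856 and 18614 in Con, about 33.2% to 34.8% of the block in each library. The bins starting at 98662201, 98662801, 98666801 and 98666401 came next. On chromosome 9 the leading bin started at 3025401, inside Gm10717, and held 1312 and 919 reads in Step1, 772 and 624 in Step2, and 1250 and 1142 in Con. It was followed by the bins starting at 3000001, 3023401, 3002001 and 3036001. The order of bins was much alike between libraries. Across bins, Pearson correlations of log2(CPM + 1) between library pairs were 0.994 to 0.998 on chromosome 2 (the 25 bins with a read) and 0.964 to 0.981 on chromosome 9 (the 154 bins with a read), given as a description, since all libraries share the same assembled sequence. CPM here is reads divided by the library's reads outside windows of extreme density, times 1e06.

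**Figure D1:**
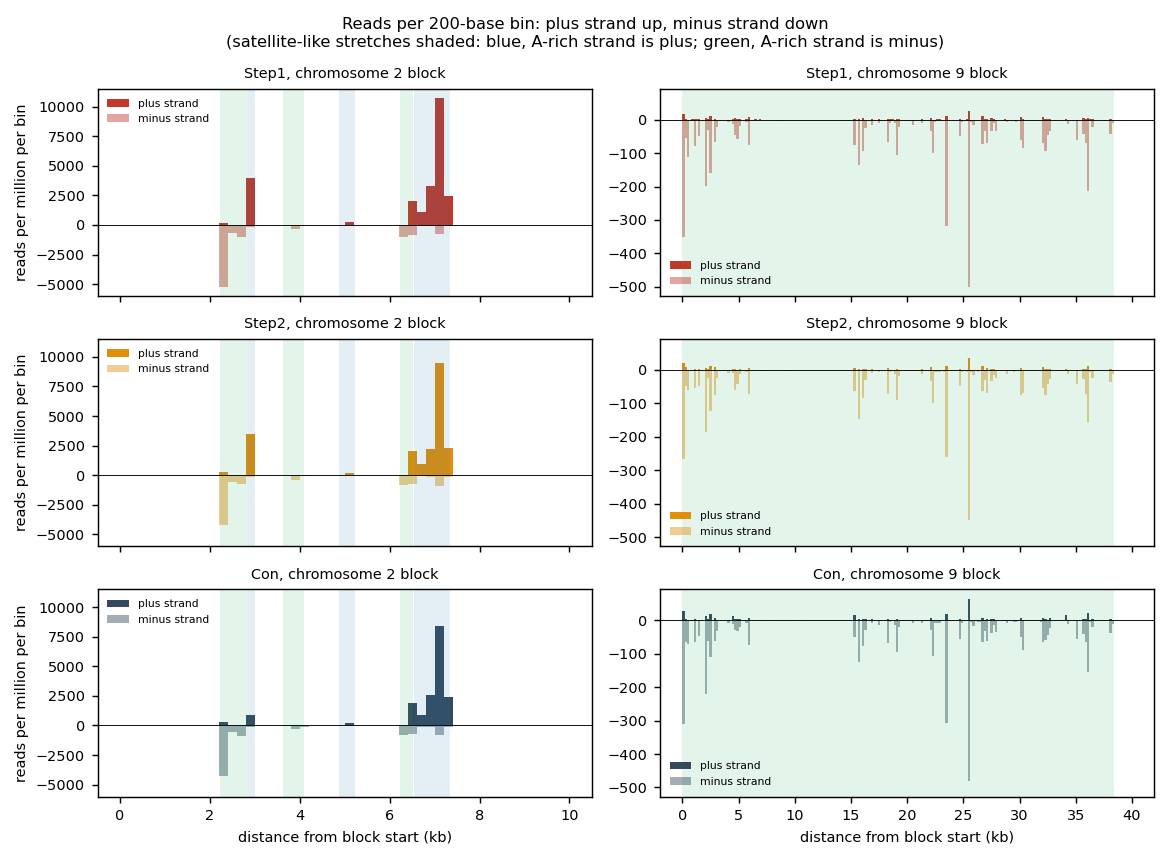
Reads per 200-base bin in CPM (vertical axis, mean of the 2 libraries of each group) along the chromosome 2 block (left) and the chromosome 9 block (right), by distance from the block start in kb (horizontal axis), with plus-strand reads up and minus-strand reads down. Rows are Step1, Step2 and Con. Shading marks satellite-like stretches by the strand that is A-rich (blue plus, green minus), and bars point up over blue and down over green, with few reads elsewhere.

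Nearly all reads ran along the A-rich strand. On chromosome 9 the plus strand held 4.44% and 3.91% of reads in Step1, 5.77% and 6.61% in Step2, and 6.47% and 10.1% in Con. On chromosome 2 it held 70.5% and 69.7% in Step1, 69.5% and 70.3% in Step2, and 66.9% and 66.2% in Con. Outside windows of extreme density the plus share was 49.9% to 50.1% in every library. The widest 95% Wilson intervals among these block shares were 69.9% to 70.8% (Step2 replicate 2, chromosome 2) and 5.97% to 7.31% (Step2 replicate 2, chromosome 9), and they cover counting error only.

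Read by stretch, the mixed balance of chromosome 2 resolved into stretches of opposite orientation. Reads with their 5′ end in satellite-like sequence lay on the A-rich strand for 95.8% and 96.0% in Step1, 94.0% and 94.0% in Step2, and 93.0% and 94.3% in Con on chromosome 2. On chromosome 9 the shares were 95.6% and 96.1% in Step1, 94.2% and 93.4% in Step2, and 93.5% and 89.9% in Con. Over the 8 stretches of both blocks and all 6 libraries the share ran from 89.9% to 99.4%, with the A-rich strand on plus in some and on minus in others. Major-like and minor-like stretches were both on this side.

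The skew was weaker when each position was counted once. On chromosome 9, 81.7% to 86.5% of distinct 5′ positions lay on the A-rich strand, and over the chromosome 2 stretches the share of positions ran from 63.0% to 92.3%. The minority strand thus held many positions of few reads.

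The same skew was found outside the blocks. Of 21 other 10-kb windows with over 20 times the median reads of nonzero windows, 7 held satellite-like sequence (on chromosomes 6, 9, 12, 14 and X). Reads in those stretches were on the A-rich strand for 91.5% to 100% over windows and libraries. The largest of these in reads, 14:19410001-19420000, held 40402 such reads at 93.6% to 96.1%. The skew was therefore not particular to the chromosome 2 and chromosome 9 blocks, and its cause was not tested.

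**Figure D2:**
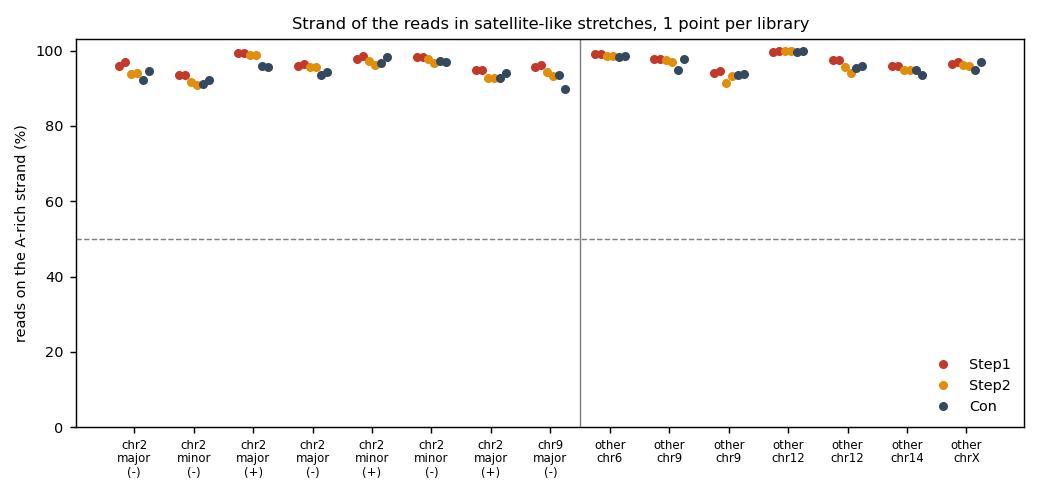
Share of reads on the A-rich strand in percent (vertical axis) for the 7 stretches of the chromosome 2 block and the chromosome 9 repeat (left of the line, with the A-rich strand in brackets) and for 7 other dense windows with satellite-like sequence (right). Each point is 1 library, coloured by Step1, Step2 and Con, and the dashed line marks equal strands; all points lie between 89.9% and 100%.

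Reads piled onto single positions. The chromosome 2 block held 29.7 to 51.7 reads per distinct 5′ position and the chromosome 9 block 3.78 to 5.51, against 1.13 to 1.37 outside dense windows. The submitters had already removed PCR duplicates by molecular identifier. Of the positions in the chromosome 2 block, 898 were seen in all 6 libraries and carried 93.7% to 98.2% of the reads. On chromosome 9, 568 positions were seen in all 6 and carried 71.2% to 76.3%. Reuse of the same positions was thus heavier on chromosome 2, where reads per position were also higher. No adjustment was made for that difference.

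Placed along the 234-base unit on the A-rich strand, 5′ ends on chromosome 9 favoured unit base 9 in all 6 libraries. It held 6.79% and 6.19% of major-like A-rich-strand reads in Step1, 5.57% and 5.96% in Step2, and 5.29% and 6.99% in Con. Unit base 67, or in 2 libraries unit base 2, came next. The most-read minus positions, 3025570 and 3036099, are copies of unit base 9, and 3002157 is a copy of unit base 67. Position 3025570 held 242 and 158 reads in Step1, 105 and 97 in Step2, and 226 and 245 in Con. On chromosome 2 the leading unit base was 89 in Step1 (12.5% and 11.8%) and Step2 (9.48% and 10.8%), and 193 in Con (5.97% and 6.76%). Most reads at unit base 89 in Step1 and Step2 lay at a single start, 98662828 on plus. That start held 7973 and 6135 reads in Step1, 3368 and 3488 in Step2, and 651 and 502 in Con. Unit base 193 corresponds to position 98667097 on plus, in an annotated exon of Gm10800 (98667079-98667228), which held 3857 and 3104 reads in Step1, 2079 and 1724 in Step2, and 2569 and 2564 in Con.

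**Figure D3:**
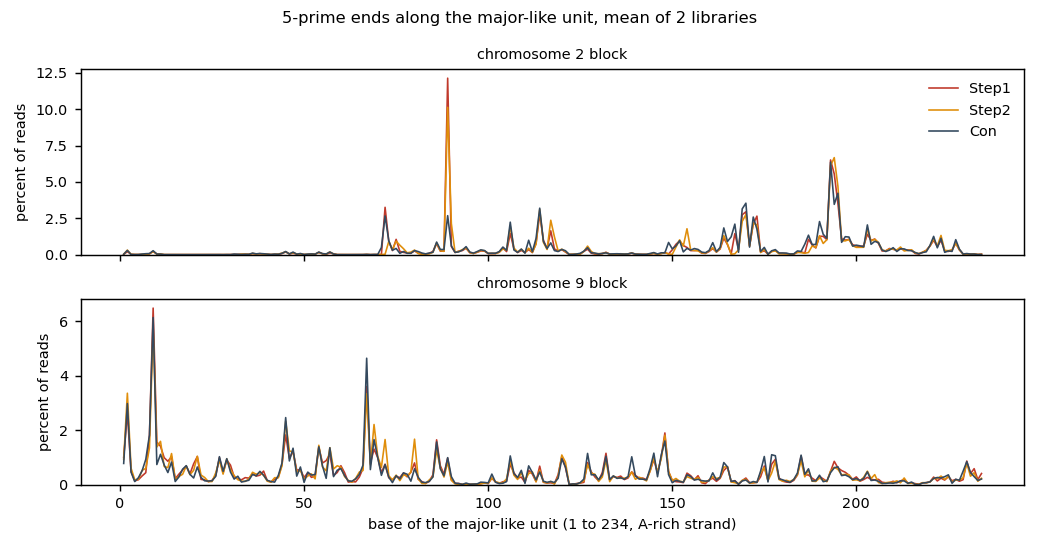
Share of major-like A-rich-strand reads in percent (vertical axis) by base of the 234-base unit (horizontal axis), for the chromosome 2 block (top) and the chromosome 9 block (bottom). Lines are means of the 2 libraries of Step1, Step2 and Con; the lines lie close together on chromosome 9, and on chromosome 2 they part at unit base 89, where Step1 and Step2 stand above Con.

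Counts of position pairs showed little periodicity at the unit length on chromosome 9. Among minus positions, pairs 234 bases apart numbered 78 and 64 in Step1, 46 and 48 in Step2, and 84 and 67 in Con. Medians over lags were 74 and 70 in Step1, 48 and 41 in Step2, and 80 and 64 in Con. The most frequent lag ran from 330 to 373 bases over libraries. It held 145 and 127 pairs in Step1, 95 and 88 in Step2, and 140 and 118 in Con. As the highest of the lags counted, it exceeds the median by selection. On chromosome 2, minus positions 120 bases apart made 288 and 257 pairs in Step1, 212 and 210 in Step2, and 294 and 272 in Con, with medians of 78 and 64 in Step1, 70 and 62 in Step2, and 86 and 76 in Con. These stretches are 168 to 788 bases long, so short lags hold more pairs whatever the repeat.

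A blunt break would leave a plus-strand and a minus-strand 5′ end at adjacent bases. Such facing pairs numbered 171 and 137 in Step1, 115 and 122 in Step2, and 188 and 176 in Con on chromosome 2. The median over offsets within 60 bases was 175 and 143 in Step1, 133 and 133 in Step2, and 199 and 185 in Con. On chromosome 9 facing pairs numbered 14 to 39 per library, with medians of 21 to 43. Adjacent facing ends were no more frequent than ends at other offsets. The most frequent offset was 45 to 50 bases, about 1 read length, in all 12 block and library combinations. A sequence that occurs once does so on both strands, so a plus start and the minus start 1 read length on can be placed together. Adjacent facing ends need a separate such sequence on each side. These counts therefore cannot decide whether breaks were blunt.

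Where reads could be placed depended on which starts have a sequence of their own in the assembly. Of the 80000 chromosome 9 starts, counting each base on both strands, 14.1% began a 47-base sequence that occurs once on chromosomes 1 to 19, X, Y and M, and 85.2% began a sequence still copied elsewhere at 49 bases. The 11274 starts that occur once at 47 bases held 97.4% and 97.4% of reads in Step1, 99.1% and 99.2% in Step2, and 95.4% and 95.2% in Con. On chromosome 9, the 82 repeat bins with no start that occurs once at 49 bases held 175 reads in all libraries together, the 25 bins with 1 to 40 such starts held 3608, and the 86 bins with more held 44594. Of the 46 empty chromosome 9 bins, 38 were repeat bins with no such start and 7 lay past the repeat. Reads in the blocks also had lower mapping quality scores. A score of 30 or more was reached by 63.7% and 63.9% of chromosome 2 reads in Step1, 65.4% and 65.2% in Step2, and 60.1% and 60.1% in Con, and by 39.4% to 46.1% on chromosome 9, against 94.7% to 96.0% outside dense windows.

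The groups differed in aligned read length and in which starts of the blocks they filled. The most common length was 48 bases in both Step1 libraries, 47 in both Step2 libraries and 49 in both Con libraries. Reads of 47 bases made up 17.9% and 17.8% of Step1 libraries, 62.4% and 63.1% of Step2 and 6.03% and 5.97% of Con. On chromosome 2, the 134 starts whose sequence occurs once only from 48 bases on held 2094 and 1440 reads in Step1, 5 and 4 in Step2, and 2522 and 1970 in Con. The 132 starts that occur once only from 49 bases on held 11 and 3 reads in Step1, 11 and 6 in Step2, and 1581 and 1315 in Con. Each class was thus filled almost only in the groups whose usual read is long enough.

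Chromosome 9 behaved alike. Its 266 starts that occur once from 48 bases on held 184 and 161 reads in Step1, 0 and 1 in Step2, and 182 and 165 in Con. Its 274 starts that occur once from 49 bases on held 168 and 166 reads in Con and 0 in each Step1 and Step2 library. At the depth of this block a count of 0 allows a share of up to 0.029% and 0.0363% in Step1 and 0.0502% and 0.0567% in Step2, against 1.74% and 1.88% in Con. The presence or absence of reads at such starts cannot be told apart from the difference in read length between the groups.

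**Figure D4:**
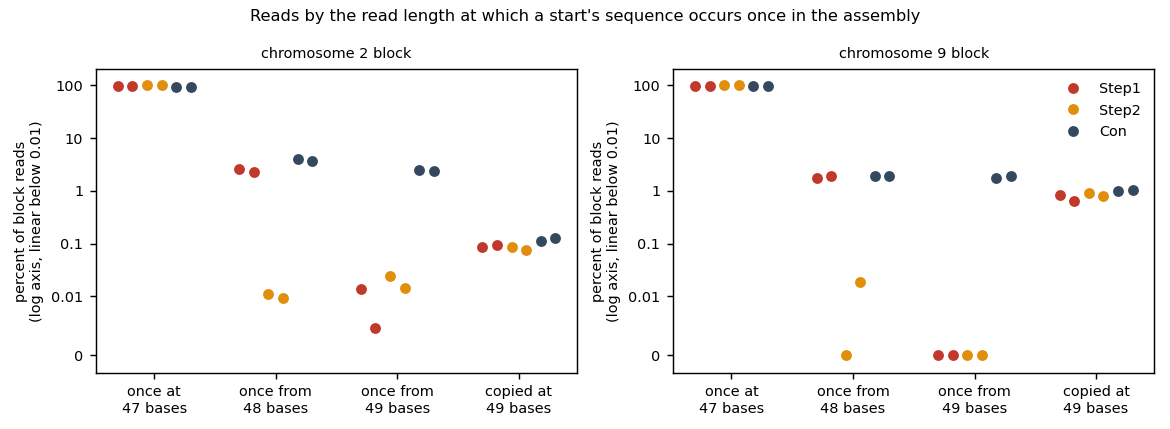
Share of block reads in percent (vertical axis, log scale, linear below 0.01) at starts whose sequence occurs once at 47 bases, once from 48 bases on, once from 49 bases on, or is copied at 49 bases (horizontal axis), for the chromosome 2 block (left) and the chromosome 9 block (right). Each point is 1 library of Step1, Step2 or Con; on chromosome 2 the class that needs 49 bases holds at most 0.0136% in Step1, at most 0.0241% in Step2, and 2.41% and 2.51% in Con.

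Single starts showed the same dependence in some cases and not in others. In the chromosome 2 block, 5 starts had 100 or more reads in both Con libraries and 10 or fewer in each Step1 and Step2 library, a rule chosen after the values were seen. For 98666568 and 98667090 on plus and 98662302 on minus, the sequence has exact copies elsewhere at 47 and 48 bases and none at 49. For 98666958 on plus it has copies at 47 bases and none at 48 or 49. For 98662379 on minus it occurs once at all 3 lengths. For 3 of the 5, the 49 bases (98666568-98666616, 98666958-98667006 and, on minus, 98662254-98662302) are shown, each followed by those of the next base in reading direction (98666569-98666617, 98666959-98667007 and 98662253-98662301), 5′ to 3′ in GRCm38.p6. Bases 48 and 49 are in capitals, the letters that a 47-base read lacks.
98666568 plus: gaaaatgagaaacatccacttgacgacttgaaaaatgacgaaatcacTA
98666569 plus: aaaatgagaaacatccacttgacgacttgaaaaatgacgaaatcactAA
98666958 plus: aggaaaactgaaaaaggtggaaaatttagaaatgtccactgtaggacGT
98666959 plus: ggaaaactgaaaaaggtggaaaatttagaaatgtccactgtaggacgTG
98662302 minus: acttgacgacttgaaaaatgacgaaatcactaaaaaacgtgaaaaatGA
98662301 minus: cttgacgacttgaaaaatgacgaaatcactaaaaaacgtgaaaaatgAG
Start 98666568 held 1 and 1 reads in Step1, 0 and 0 in Step2, and 416 and 351 in Con, all of 49 bases. Start 98666569 held 229 and 161 reads in Step1, 0 and 0 in Step2, and 217 and 155 in Con, and has exact copies elsewhere at 47 bases and none at 48. A start that needs 48 bases was thus read in Step1 and Con, and its neighbour that needs 49 nearly only in Con. Start 98666958 held 3 and 0 reads in Step1, 0 and 0 in Step2, and 288 and 191 in Con. Start 98666959 held 2251 and 1802 in Step1, 3 and 1 in Step2, and 1517 and 1076 in Con. This pair also parted Con from the other groups at the first start and Step2 at the second, although 98666959 occurs once at all 3 lengths and 98666958 already at 48. On minus, 98662302 held 7 and 1 reads in Step1, 0 and 0 in Step2, and 557 and 521 in Con. Its neighbour 98662301 held 964 and 713 in Step1, 2 and 2 in Step2, and 965 and 894 in Con. Start 98662379 held 8 and 9 reads in Step1, 4 and 2 in Step2, and 200 and 177 in Con, all of 49 bases in Con. Its neighbour 98662378 on minus also occurs once at all 3 lengths. That start held 5 and 4 reads in Step1, 0 and 0 in Step2, and 62 and 43 in Con. Read length against copies elsewhere thus did not account for this pair.

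By a wider rule across both blocks, also chosen after the values were seen, 12 starts had 50 or more reads in both libraries of 1 group and 2 or fewer in both libraries of another. In 10 of them Con was high and Step2 low. Of these 10, 9 have an exact copy elsewhere at 47 bases, 3 at 48 and 0 at 49. The opposite case was 98662546 on minus, with 77 and 58 reads in Step2, 34 and 17 in Step1, and 2 and 2 in Con. In all, 2262 starts on chromosome 2 and 3776 on chromosome 9 held a read. How many reached 50 reads in both libraries of a group was not counted. Of all starts with reads in Con, 94.6% and 94.5% on chromosome 2 occur once at 47 bases. On chromosome 9 these shares were 92.2% and 91.0%.

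The start with the highest mean share in the chromosome 2 block, 98662828 on plus, also differed in reads between the groups. It ranked first through the Step1 and Step2 libraries, so its difference from Con is given as a description. In Con, 98667097 on plus held more reads (2569 and 2564). Start 98662828 is the first base of a major-like stretch that abuts a minor-like stretch of opposite orientation, and lies in an intron of Gm10801. It held 7973 and 6135 reads in Step1, 3368 and 3488 in Step2, and 651 and 502 in Con. That was 9.86% and 9.48% of the block in Step1, 7.39% and 8.53% in Step2, and 1.04% and 0.919% in Con, with no overlap of Con with either Step group. Its 49 bases (98662828-98662876, plus) are shown with those of 98667097 (98667097-98667145, plus), second by mean share, with bases 48 and 49 in capitals.
98662828 plus: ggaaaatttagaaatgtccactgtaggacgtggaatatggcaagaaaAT
98667097 plus: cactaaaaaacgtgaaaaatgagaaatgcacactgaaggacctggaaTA
In Step1, 7195 and 5553 of the reads at 98662828 were 48 bases long, and in Step2, 2973 and 3062 were 47 bases long. In Con, 335 and 272 were 48 bases long and 174 and 123 were 49, although 49 is the usual length in Con. The closest other places in the assembly, 47 in number, differ from it at 1 base over 47 or 48 bases and at 2 bases over 49. At 98667097 the closest other places, 2 in number, differ at 1 base at each of these lengths. Start 98662829, the next base, held 186 and 132 reads in Step1, 733 and 649 in Step2, and 75 and 64 in Con.

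Share of library was compared between groups over libraries. The chromosome 2 block took 3.36% and 3.17% of reads in Step1, 2.98% and 2.76% in Step2, and 2.73% and 2.40% in Con, and the 3 groups did not overlap. Means were 3.27% ± 0.140 in Step1, 2.87% ± 0.157 in Step2 and 2.57% ± 0.233 in Con (SD, n = 2 each). Each pair gave an exact two-sided permutation p of 0.33, the smallest that 2 against 2 allows. Without start 98662828 the shares were 3.03% and 2.87% in Step1, 2.76% and 2.53% in Step2, and 2.70% and 2.38% in Con, and Step2 then overlapped Con. The chromosome 9 block took 0.431% and 0.405% in Step1, 0.392% and 0.358% in Step2, and 0.420% and 0.388% in Con, with Con overlapping both Step1 and Step2. Step1 and Step2 did not overlap there.

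**Figure D5:**
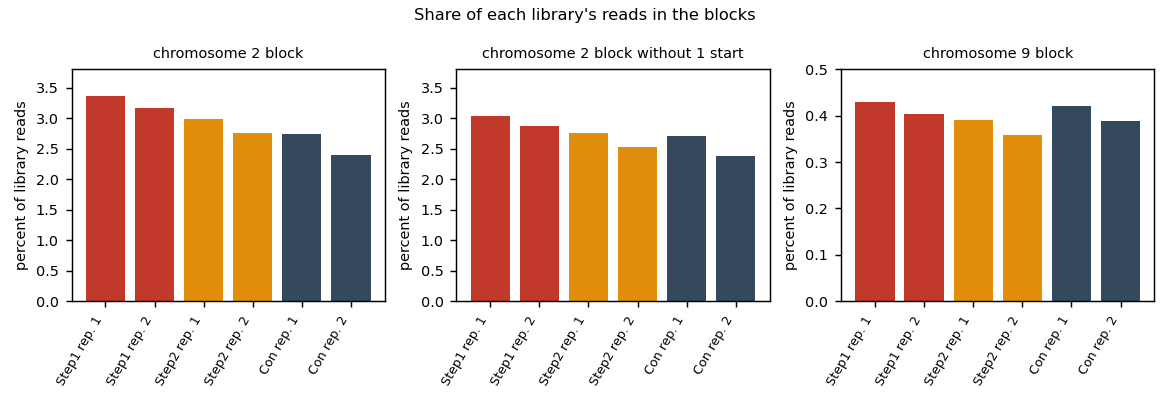
Share of each library's reads in percent (vertical axis, from 0) for the chromosome 2 block (left), the same without start 98662828 on plus (middle) and the chromosome 9 block (right). Each bar is 1 library of Step1, Step2 or Con; Step1 is highest on chromosome 2, where its lead over Con is smaller without the 1 start, and on chromosome 9 Con overlaps both Step1 and Step2.

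For Step1 against Con, limma voom over 128045 features of 10 kb (the chromosome 9 block as 1 feature) put the chromosome 2 block higher by 0.36 ± 0.06 on the log2 scale (SE, adjusted p = 0.00363), where 0.00312% of all features were called higher. Without start 98662828 the difference was 0.23 with an adjusted p of 0.868. At a difference of 0.36 the call was also lost with limma-trend (adjusted p = 1.0), with only the 2 groups fitted (limma adjusted p = 0.941), without Step2 replicate 1 or Step2 replicate 2 (limma adjusted p of 0.934 and 0.937) and with 20 or more reads required (limma adjusted p = 0.29). Without Step1 replicate 1 it was 0.32 (limma adjusted p = 0.893) and without Step1 replicate 2 it was 0.41 (limma adjusted p = 0.0772). Within sequencing run 1 of the 2 runs recorded in the read names, the block took 3.58% ± 0.169 in Step1 and 2.65% ± 0.239 in Con, and within run 2 it took 3.03% ± 0.155 in Step1 and 2.50% ± 0.239 in Con (SD, n = 2 each). The limma difference was 0.46 in run 1, not called (adjusted p = 0.195), and 0.29 in run 2, called (adjusted p = 0.0414). Counted once per position, the block was lower in Step1, by -0.20 (limma adjusted p = 0.0494). The block then held 1563 and 1458 positions in Step1 and 1621 and 1534 in Con. Library size was then 2013935 and 1674793 positions in Step1 and 1773609 and 1590516 in Con, and its part was not tested. The chromosome 9 block was not called in Step1 against Con (0.06, adjusted p = 0.918).

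For Step2 against Con the log2 difference was 0.17 on chromosome 2 (adjusted p = 0.988) and -0.11 on chromosome 9 (adjusted p = 0.988), where 0.0039% of features were called higher and 0.00234% lower. The chromosome 2 block was called higher in Step2 than in Con under other settings, at 0.29 with 1 read per position (limma adjusted p = 2.09e-07), 0.27 with trimmed means of M values (limma adjusted p = 0.0292), 0.30 with median of ratios (limma adjusted p = 0.00392), 0.66 with 47-base reads (limma adjusted p = 0.0357) and 0.26 without Con replicate 1 (limma adjusted p = 0.00148). For Step2 against Step1 it was -0.19 on chromosome 2 and -0.17 on chromosome 9, both with an adjusted p of 1.0, where 0.00234% were called in each direction. Counts of 1 read per position turned this last direction, on chromosome 2 to 0.49, with an adjusted p of 5.94e-26, and on chromosome 9 to 0.30 (limma adjusted p = 7.84e-09). Without Con replicate 2 the chromosome 2 difference was -0.19 and called (limma adjusted p = 0.0299). Depth differed between these groups, and its part in the count of distinct positions was not tested.

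Bin by bin, 87 member bins (15 on chromosome 2 and 72 on chromosome 9) had 10 or more reads in 2 or more libraries, so the other 163 were not tested. Of the 87, 1 was called in Step1 against Con, higher in Step1, where 0.651% of all 1076 bins tested were called (0.558% higher, 0.0929% lower). In Step2 against Con 1 was called, higher in Step2, where 0.836% of all bins were (0.651% higher, 0.186% lower). In Step2 against Step1 0 were called, where 1.02% of all bins were (0.372% higher, 0.651% lower). In this last comparison, limma gave 67 of all bins an unadjusted p under 0.05. Median log2 differences of the tested members were 0.09, -0.06 and -0.14 in these comparisons, against -0.88, -1.25 and -0.26 over all bins tested, which the 10-read filter had also selected.

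The called bin was the same in both comparisons with Con, the one starting at 98662801 on chromosome 2, which contains start 98662828. It held 9783 and 7616 reads in Step1, 5229 and 5134 in Step2, and 2422 and 2116 in Con. The log2 difference was 1.99 ± 0.0861 for Step1 against Con (SE, limma adjusted p = 1.97e-05) and 1.80 ± 0.0917 for Step2 against Con (adjusted p = 6.94e-05). Without start 98662828 the bin held 1810 and 1481 reads in Step1, 1861 and 1646 in Step2, and 1771 and 1614 in Con. The limma difference for Step1 against Con was then 0.01 (adjusted p = 0.924). For Step2 against Con it was 0.66 (adjusted p = 0.0227), and for Step2 against Step1 it was 0.64 (adjusted p = 0.0175). The next start, 98662829, which was most read in Step2, stayed in these counts.

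In Step2 against Step1 the member bins with the smallest p were those starting at 98666801 (log2 difference -0.56 ± 0.13 SE, limma adjusted p = 0.234), 98662201 (-0.26 ± 0.06, adjusted p = 0.240) and, on chromosome 9, 3000401 (-0.86 ± 0.23, adjusted p = 0.335). The last held 107 and 72 reads in Step2, and 241 and 230 in Step1. None of these passed the threshold.

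Strand balance was tested as log2 of plus over minus reads across 967 features with 10 or more reads in every library. Neither block was called in any comparison with these settings. On chromosome 9 the difference for Step1 against Con was -1.02 (limma adjusted p = 0.103), where 0.207% of features were called lower and 0.103% higher. It was called with 2 reads added per strand (-1.02, limma adjusted p = 0.00599), with 1 read per position (-0.41, limma adjusted p = 0.00256) and without Con replicate 1 (-1.37, limma adjusted p = 0.0301). For Step2 against Con it was -0.42 (adjusted p = 0.710), where 0.414% were called lower and 0.103% higher, and for Step2 against Step1 it was 0.60 (adjusted p = 0.691), where 0.103% were called in each direction. Con replicate 2 stood apart in this value. Its 889 plus reads included 146 at 3025527 and 64 at 3036056, both copies of unit base 52, against 30 and 11 in Con replicate 1 and at most 11 and 7 in the Step libraries. Without both positions the plus share was 4.28% and 3.85% in Step1, 5.61% and 6.35% in Step2, and 6.07% and 7.88% in Con. On chromosome 2 the differences were 0.24 for Step1 against Con, 0.22 for Step2 against Con and -0.01 for Step2 against Step1 (limma adjusted p of 0.902, 0.714 and 0.997). With 47-base reads alone, an alternative added after the data were seen, the chromosome 2 balance for Step1 against Con was -1.02 (limma adjusted p = 5.35e-06), opposite in sign. That length is the usual one in Step2 alone, and in Step1 and Con it is a minor share of reads.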

How the data were processed

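BLISS libraries of sorted forebrain neurons (Step1, Step2 and Con, 2 each) were analysed from the deposited alignments. The submitters' processing notes state that molecular identifiers served to drop PCR duplicates, that Bowtie2 mapped the reads to mm10, and that SAMtools and bedtools made the interval files. No version of these tools is named in the sources used here. Each deposited line is 1 read with a score, the aligner's mapping quality. The read's 5′ end was counted by bin and strand with Python 3.11.15, numpy 2.4.6, pandas 2.3.3, SciPy 1.17.1 and matplotlib 3.10.9.

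Library size was the reads on chromosomes 1 to 19 and X outside 26 windows of 10 kb with over 20 times the median of nonzero windows. limma 3.58.1 in R 4.3.3 (voom for reads, limma-trend for strand balance with 0.5 reads added) fitted all 6 libraries with 1 mean per group, on features with 10 or more reads in 2 or more libraries, or for strand balance in every library. Benjamini-Hochberg adjustment ran over all features tested, with a threshold of 0.05. In a test on simulated data with 4-fold changes for Step1 against Con, the bin fit (744 bins) recovered 83% with 2 false calls. The window fit (95327 windows) recovered 59.1% with 1, and the strand fit (967 windows) 28% with 1. The simulation assumed the same dispersion for all features and, for strands, counting error alone around equal strands. Block differences given here are smaller than 4-fold, so these rates do not carry over to them.

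Satellite-like stretches were found by aligning the blocks' own repeat units to the blocks and the other dense 10-kb windows. The rest of the assembly was not searched for them. Unit bases were numbered along the first 234 bases of the chromosome 9 block on its A-rich strand. Sequences of 47, 48 and 49 bases were searched on both strands of chromosomes 1 to 19, X, Y and M. Named bins are the 5 of highest mean share per block, the called bins with the largest change, or, with none called, the 3 of smallest p. Named positions are the 3 of highest mean share per block and strand, plus starts chosen after their values were seen. The blocks, lists and tests were chosen with earlier results of these data known. Alternatives covered read sets, scaling, filters, test, bins and left-out libraries.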

Additional observations from a re-analysis of the deposited data

How the results depend on the processing

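Of 291 alternative values (26 settings, 15 results), 217 kept their direction and side of the threshold, or for counts lay within 1.5 times. The chromosome 2 call for Step1 against Con (0.36) lost the threshold in sequencing run 1 (0.46), with 47-base reads (0.45), without start 98662828 (0.23), with 20 or more reads required (0.36), with limma-trend (0.36) and with only the 2 groups fitted (0.36), and without Step1 replicate 1, Step1 replicate 2, Step2 replicate 1 or Step2 replicate 2. With 1 library left out at a time it ran from 0.27 to 0.46, the Step2 against Con value from 0.074 to 0.26 (called without Con replicate 1) and the Step2 against Step1 value from -0.25 to -0.14 (called without Con replicate 2). Strand balance then ran from -0.041 to 0.015 on chromosome 2 for Step2 against Step1 and from -1.37 (called, without Con replicate 1) to -0.67 on chromosome 9 for Step1 against Con. The lone library of a group was assumed to vary like the others.

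Numbers of member bins called for Step1 against Con, Step2 against Con and Step2 against Step1 (1, 1 and 0) became 0, 9 and 20 with 1 read per position; 3, 1 and 1 in run 1; 3, 3 and 1 in run 2 and with 20 or more reads required; and 7, 22 and 13 with 47-base reads. Without start 98662828 they were 0, 1 and 1. For Step2 against Con they were 2 with trimmed means of M values, and 3 with median of ratios and with limma-trend. For Step2 against Step1 they were 2 with quality weights and with only those groups fitted. With 5 reads over all libraries they were 6 for Step1 against Con and 1 for Step2 against Step1. With 1 library left out they were 1 to 10, 1 to 4 and 0 to 5 in these comparisons.

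With 1 read per position the chromosome 2 values were -0.20, 0.29 and 0.49 (all called), those of chromosome 9 were -0.17, 0.13 and 0.30 (the last called), and strand balance was -0.019 (Step1 against Con) and 0.029 (Step2 against Step1) on chromosome 2 and -0.41 (Step1 against Con, called) on chromosome 9. The log2 differences in reads among these depend on library size in distinct positions, which was lowest in Step2. Its part was not tested. With a score of 30 or more, chromosome 9 gave 0.076 for Step2 against Con and the chromosome 2 balance 0.021 for Step2 against Step1. In run 2 chromosome 9 gave -0.00046 for Step1 against Con. Reads of 47 bases are the usual length in Step2 alone, so values from them compare unlike shares of the libraries. With 47-base reads chromosome 2 gave 0.66 for Step2 against Con (called) and 0.21 for Step2 against Step1, chromosome 9 gave -0.32 for Step1 against Con, the chromosome 2 balance -1.02, -0.55 and 0.47 (all called), and the chromosome 9 balance 1.10 (Step2 against Con) and 1.33 (Step2 against Step1), both called. Median of ratios moved all window values for Step2 against Con by 0.13, which gave 0.30 on chromosome 2 (called) and 0.023 on chromosome 9; trimmed means gave 0.27 on chromosome 2 (called). With 2 reads added per strand the chromosome 9 balance for Step1 against Con was -1.02 and was called. Without start 98662828 the chromosome 2 balance for Step2 against Step1 was 0.027. Beyond the settings that change which reads are counted, the cause was not tested.

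With 2 numbers per group, replicate numbers were not shown to pair the libraries (correlations of replicate differences between groups were 0.0038 to 0.0088 over windows and 0.077 to 0.118 over bins). With the replicate block, member bins called were 9, 4 and 6, and the chromosome 2 values were 0.16 for Step2 against Con and -0.20 for Step2 against Step1, both called. Only 2 libraries per group and low mapping scores in the repeat limit all values.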
